A study of Mus musculus with 4 samples.

Results

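The genes described are 43 cell cycle genes, chosen by their symbols from a list fixed for this description and found among the 32285 genes of each count table. They comprise 27 mitotic genes, 10 S-phase genes, 4 genes that dividing cells raise but other cells also use (Hmgb2, Tubb5, Tuba1b and Stmn1) and the D cyclins Ccnd1 and Ccnd2. They were measured by single cell RNA sequencing in discs of the mouse tail, which cushion neighbouring vertebrae. Each of 2 rounds gave 1 control library and 1 library from injured discs. All animals were wildtype female C57BL/6 mice, 12 weeks old. Injured discs (tail levels CC5/6 to CC9/10) had been punctured from both sides with a 30G needle and were taken 7 days later. Control discs were the unpunctured discs of levels CC12/13 to CC16/17 of the same animals, so injury and tail level cannot be told apart. Per the labels, 30 discs of 6 mice were pooled per group, and cells were frozen, thawed and sorted for viability. The labels do not say whether these numbers hold for each round, so the 2 rounds may not be separate sets of animals, and SDs and p-values then measure technical spread.

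Before a cell divides it copies its DNA in S phase and then separates the copies in mitosis. D cyclins with their kinases carry a cell from the resting state towards S phase. The MCM proteins form the helicase that opens DNA, Pcna is the clamp that holds the polymerase, and Rrm1, Rrm2 and Tyms make the nucleotides. Mitotic genes are switched on later: Cdk1 with its cyclins drives entry, Top2a untangles the chromosomes, Cenpa, Cenpe and Cenpf belong to the centromere and kinetochore, Birc5, Cdca8 and Aurkb form the chromosomal passenger complex, and Ube2c and Cdc20 act with the ligase that ends mitosis. Adult disc cells are known as slowly dividing cells of a tissue without a blood supply in its core.

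A barcode was kept as a cell from 250 detected genes upward, which gave 378 and 856 control cells (rounds 1 and 2) and 778 and 1834 injured cells. Depth differed between the groups, with medians of 1061.5 and 836 UMIs (distinct transcript molecules) per control cell and 7033.5 and 4635 per injured cell. All comparisons of levels are therefore per UMI sequenced, and shares of cells were compared after thinning each cell to 1000 UMIs. The 444 barcodes of the control round 1 table were all found in the injured round 1 library too, 225 with few UMIs there, 115 with similar UMIs and 104 with 29.2 to 44.8 times more UMIs in the injured library. Taking the last 2 kinds out left 219 control round 1 cells. The mitotic and S-phase sums over all cells, the mitotic marked shares and the main counts of calls are given with and without these barcodes. Cells were clustered without the genes of the cell cycle lists other than the brakes, which left other genes of the cycle in. Of 3846 cells, 2162 fell in cartilage-like clusters, 445 in fibroblast-like and 107 in nucleus pulposus-like clusters, named from markers of the inner annulus, outer annulus and disc core. The remaining cells were macrophage-like (130), endothelial-like (64), mural-like (39) or in unnamed clusters (899).

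The mitotic genes were at low levels in control discs and higher in injured discs, above all in injured round 2. Together the 27 genes held 1.203 and 0.694 of every 10000 UMIs in the control libraries of rounds 1 and 2 (mean 0.948 ± 0.360, SD, n = 2). They held 1.83 and 4.10 in the injured libraries (2.97 ± 1.61, SD, n = 2). The groups did not overlap, but the injured libraries lay far apart, 1.53 times above control in round 1 and 5.91 times in round 2. Without the shared barcodes control round 1 stood at 0.687, close to control round 2, and the round 1 ratio was 2.67.

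Cenpa, the histone variant that marks centromeres, was among the most abundant mitotic members and had 0.940 and 5.09 CPM (100 times the UMIs per 10000) in the control libraries and 16.2 and 30.9 in the injured libraries. Mki67, the proliferation marker, had 5.64 and 6.48 in control and 7.88 and 31.1 in injured libraries, so that injured round 1 was only just above control. Birc5, the passenger complex subunit survivin, had 7.52 and 4.63 in control and 11.7 and 27.2 in injured libraries. For these genes every injured value lay above every control value, with injured round 2 the highest. Top2a had 11.3 and 5.09 in control and 11.7 and 26.1 in injured libraries, and Tpx2, a spindle assembly factor, had 18.8 and 7.87 against 25.6 and 22.5. Ube2c had 11.3 and 2.78 against 15.01 and 22.5. Control round 1 thus came close to injured round 1 for Top2a, and Tpx2 was the one of these whose injured round 1 value exceeded that of round 2.

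Cdk1 had 1.88 and 1.39 CPM in control and 4.76 and 19.5 in injured libraries. Prc1, which bundles the microtubules of the central spindle, had 5.64 and 2.31 against 12.3 and 22.6. Cdca3, a target of the mitotic ubiquitin ligase, had 1.88 and 0.925 against 7.28 and 23.1. All of these were raised in both injured libraries and most in round 2. Cdca8 had 3.76 and 1.39 against 7.43 and 17.1. Hmmr, a spindle protein that also binds hyaluronan, had 0.940 and 1.39 against 2.97 and 10.4. Cdkn3, a phosphatase that acts on cyclin-dependent kinases, had 0.940 and 0.463 against 5.797 and 13.1. The control values of Cdkn3 rest on 2 UMIs in all against 177 in injured cells, and injured cells were 16.5 times higher (4.504 to 137 by counting error alone). The other mitotic genes were cyclins (Ccna2, Ccnb1 and Ccnb2), kinases (Aurka, Aurkb, Bub1, Bub1b and Plk1), motors (Kif11, Kif20b, Kif23 and Cenpe) and Cenpf, Cdc20 and Nusap1. Ccna2, which acts in S phase and mitosis, had 2.82 and 1.39 CPM in control and 4.31 and 12.4 in injured libraries. Cenpf had 9.40 and 2.78 against 9.51 and 20.5. Ccnb1, the partner of Cdk1, had 5.64 and 2.78 against 4.61 and 10.3, and injured round 1 lay within the control range. Cdc20, Kif20b, Kif23, Nusap1, Cenpe, Bub1b and Plk1 also had injured round 1 below a control library. Across all 27 mitotic genes, levels ranged from 0 to 18.8 CPM in the control libraries and from 0.595 to 31.1 in the injured libraries.

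**Figure D1:**
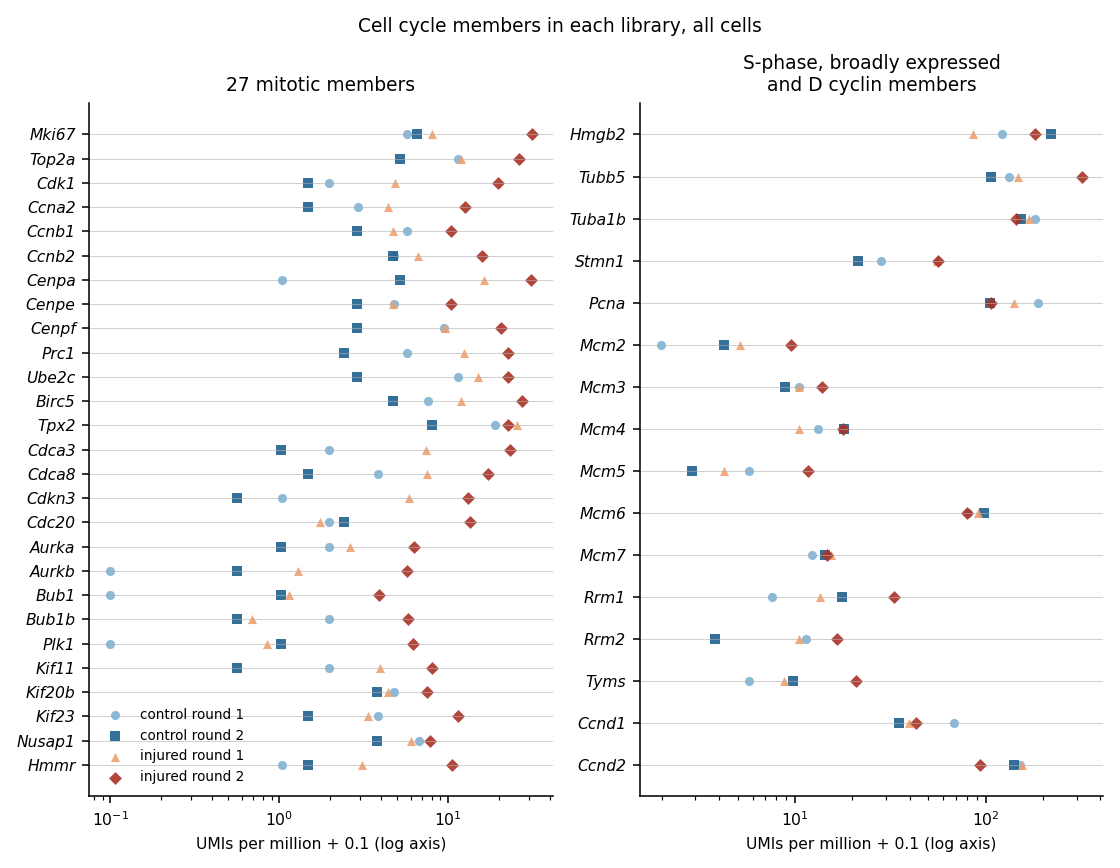
Level of each of the 43 genes in the 4 libraries, as CPM plus 0.1 on a log axis, 1 point per library; the left panel holds the mitotic genes and the right panel the others. Injured round 2 (dark red) is the highest library in all mitotic rows but that of Tpx2, while Pcna, Mcm6, Tuba1b and the D cyclins show no such order.

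UMIs summed per library were tested with edgeR's quasi-likelihood test, adjusted over all 11987 genes tested by the Benjamini-Hochberg method. With injury as the only term, 0 of the 39 members tested were called, where 0.0834% of all genes were called and none of those was higher in injured discs. At an unadjusted p-value under 0.05 there were 13 of the 39, against 7.89% of all genes, and DESeq2 called 2 members, Cdca3 and Cenpa, where it called 0.262% of all genes higher. Leaving out 1 library changed this count: 7 of 42 members were called higher without injured round 1 (0.661% of all genes), 4 of 43 without control round 1 (0.507%) and 1 of 43 without control round 2 (0.279%), the lone library being assumed to vary like the other pair. Aurkb, Bub1, Bub1b and Plk1 did not pass the filter on low counts. All 23 mitotic genes tested had a positive log2 fold change, with a median of 1.82, against a median of -0.01 over all genes. Of the 39 members 22 were higher in both injured libraries than in both control libraries, 17 of them mitotic, against 16.4% of all genes tested. None of the 39 was lower in both, against 20.6%.

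The rounds may pair the libraries. The labels say that control and injured discs came from the same animals, but not which animals each round used. With round as a block, 11 of the 39 members rose, where 3.04% of all genes were called higher and 3.66% lower. They were 10 mitotic genes (Birc5, Cdca3, Cdca8, Cdk1, Cdkn3, Cenpa, Hmmr, Mki67, Prc1 and Ube2c) and Stmn1, a microtubule-destabilizing protein. The log2 fold changes of the mitotic genes called ran from 1.75 for Ube2c (SE 0.50, adjusted p = 0.0482) to 4.09 for Cdkn3 (SE 0.76, adjusted p = 0.00395). Cenpa had the smallest adjusted p-value, at a log2 fold change of 2.97 (SE 0.42, adjusted p = 0.000374), and Mki67 had 1.81 (SE 0.44, adjusted p = 0.0232). Top2a had a log2 fold change of 1.42 (SE 0.47, adjusted p = 0.0867) and was not called. No S-phase gene and no D cyclin was called. The block adds a term to a fit of only 4 libraries, so these p-values rest largely on the spread estimated over all genes. Without the shared barcodes 10 members were called with the block, against 0.96% of all genes called higher, among them Cenpf in place of Hmmr and Ube2c. Of 44 other mitotic genes tested from a wider list, 9 rose with the block, among them Foxm1, the transcription factor of mitotic genes, and Spc25 of the kinetochore, and none fell. Only Racgap1, of 42 then tested, kept its call without the shared barcodes.

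Most of the mitotic and S-phase members with a known window share a sequence feature before the gene start that the choice of genes did not use. Windows of the 250 bases before the gene start were taken from RefSeq (build GRCm38.p6) for 36 of the 43 members. They were searched on both strands for CCAAT, the letters bound by the factor NF-Y; for TTTGAA, a form of the cell cycle homology region; and for TTTNNCGC, a form of the E2F site. Matches on opposite strands may overlap. CCAAT was in 21 of 24 mitotic windows (87.5%) and in 8 of 9 S-phase windows (88.9%), against 34.5% of all 27025 windows in the table. TTTGAA was in 8 of 24 mitotic windows (33.3%) and in 1 of 9 S-phase windows (11.1%), against 16.3%. TTTNNCGC was in 3 of 9 S-phase windows (33.3%) and in 1 of 24 mitotic windows (4.17%), against 4.39%. Among other S-phase and other mitotic genes of wider lists it was in 8 of 34 (23.5%) and 10 of 50 (20%). There CCAAT was in 19 of 34 (55.9%) and 30 of 50 (60%), and TTTGAA in 5 of 34 (14.7%) and 18 of 50 (36%). Birc5, Kif20b, Nusap1 and Tyms held none of the 3 motifs. For some members, such as Mki67 and Top2a, the start used was not the outer end of the gene in RefSeq. A match is only a match of letters. The windows below are shown 5′ to 3′ in gene direction, with all matches in capitals, for 2 mitotic genes that rose with the block and for the S-phase genes Mcm6 and Pcna, which were level between the groups. Cdk1 (chr10:69352913-69353162, minus strand) holds all 3 motifs, Ube2c (chr2:164769679-164769928, plus strand) holds TTTGAA and repeated CCAAT, Mcm6 (chr1:128359706-128359955, minus strand) holds TTTNNCGC and CCAAT, and Pcna (chr2:132253181-132253430, minus strand) holds CCAAT alone.
Cdk1: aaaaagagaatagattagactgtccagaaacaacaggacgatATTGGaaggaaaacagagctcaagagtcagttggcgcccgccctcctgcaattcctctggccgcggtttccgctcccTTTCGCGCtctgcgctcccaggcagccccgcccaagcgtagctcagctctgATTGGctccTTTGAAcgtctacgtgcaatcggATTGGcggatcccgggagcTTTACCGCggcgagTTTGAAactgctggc
Ube2c: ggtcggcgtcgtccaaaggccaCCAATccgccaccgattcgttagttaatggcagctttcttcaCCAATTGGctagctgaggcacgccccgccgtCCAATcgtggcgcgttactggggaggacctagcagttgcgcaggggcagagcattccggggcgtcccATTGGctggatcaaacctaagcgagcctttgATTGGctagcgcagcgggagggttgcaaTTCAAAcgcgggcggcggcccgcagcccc
Mcm6: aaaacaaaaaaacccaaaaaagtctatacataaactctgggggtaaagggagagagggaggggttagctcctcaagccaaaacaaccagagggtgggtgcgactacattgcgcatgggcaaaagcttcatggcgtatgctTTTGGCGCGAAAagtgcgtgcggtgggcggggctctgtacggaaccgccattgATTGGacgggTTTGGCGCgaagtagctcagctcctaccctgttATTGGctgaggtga
Pcna: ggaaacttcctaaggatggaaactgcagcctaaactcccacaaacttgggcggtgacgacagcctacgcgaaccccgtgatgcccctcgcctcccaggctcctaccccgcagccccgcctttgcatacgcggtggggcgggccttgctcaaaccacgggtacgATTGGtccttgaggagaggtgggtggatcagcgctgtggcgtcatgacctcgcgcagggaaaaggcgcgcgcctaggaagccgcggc

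Most of the mitotic UMIs of injured round 2 came from fibroblast-like cells. Cluster 4, led by the repair matrix genes Cthrc1, Postn and Aspn, and cluster 10, led by Tnc and Aspn at a median of 733 UMIs per cell, held 417 of the 1834 cells of injured round 2 (22.7%, exact 95% interval 20.8 to 24.7%). They held 3732 of its 4333 mitotic UMIs (86.1%). The same clusters held 13 of 778 cells in injured round 1 (1.67%) and 141 of 1234 mitotic UMIs (11.4%). In control discs they held 10 of 378 and 5 of 856 cells. Within cluster 4 the mitotic level was 8.58 per 10000 UMIs in injured round 1 (Poisson 95% interval 7.23 to 10.1, 13 cells) and 13.2 in injured round 2 (12.7 to 13.6, 316 cells). The 6 and 3 control cells of cluster 4 gave 1.00 (0.207 to 2.94) and 0 of 21771 UMIs. Cluster 10 stood at 18.4 in injured round 2 (15.7 to 21.3). These intervals cover counting error only. The 2 injured libraries thus differed more in how many cells of cluster 4 they held than in the mitotic level within it.

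Without clusters 4 and 10 the mitotic level was 1.21 and 0.701 in the control libraries and 1.67 and 0.774 in the injured libraries, and the groups overlapped. With the shared barcodes and the small immunoglobulin cluster 12 also left out, the control levels were 0.677 and 0.463. The injured levels were 1.62 and 0.754 and did not overlap them (ratios of 2.40 in round 1 and 1.63 in round 2). Cluster 12 held 35.2% and 34.7% of the mitotic UMIs of the control libraries and 2.27% and 0.392% of those of the injured libraries. Leaving it out was chosen after seeing the data and lowers mainly the control levels. Over all cells, 16.4% of all genes tested were higher in both injured libraries than in both control libraries. In the test with round as a block and without clusters 4 and 10 alone (cluster 12 and the shared barcodes kept), 36 members were tested and 2 were called, against 4.05% of all genes called higher and 4.75% lower. Cdkn3 remained higher (log2 fold change 2.80, adjusted p = 0.0441) and Ccnd1 was lower (-0.84, SE 0.25, adjusted p = 0.0397). In neither direction is the count above the background, and Cdkn3 rests on 2 control UMIs over all cells. Mki67, with 1.81 over all cells, had -0.06 (adjusted p = 0.964), and Birc5 had 0.17 (adjusted p = 0.887). Cenpa had 1.43 (adjusted p = 0.113), Cdk1 1.42 (adjusted p = 0.246) and Cdca3 2.08 (adjusted p = 0.0719).

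**Figure D2:**
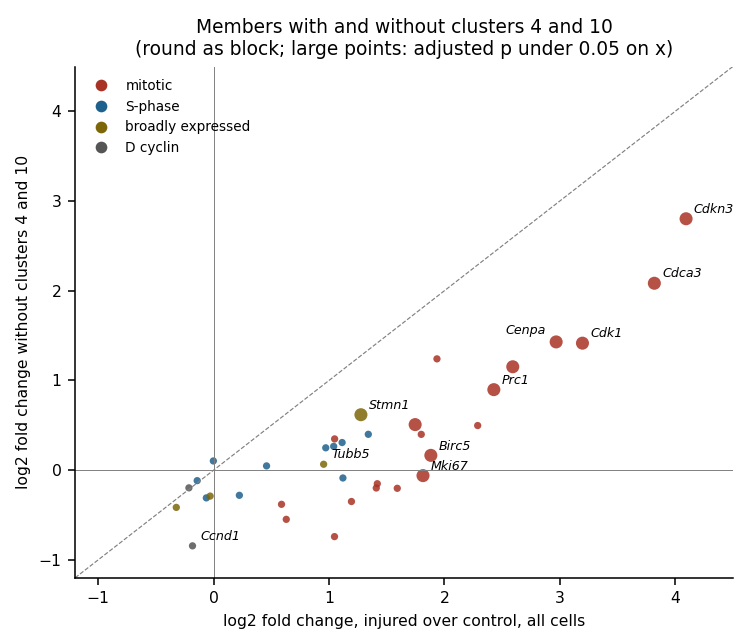
Log2 fold change of each member, injured over control with round as a block, over all cells (x axis) and without clusters 4 and 10 (y axis), coloured by role; large points passed the test over all cells and the dashed line marks equal values. Mki67 and Birc5 drop to near 0 without these clusters, while Cdkn3 and Cdca3 stay above 2.

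**Figure D3:**
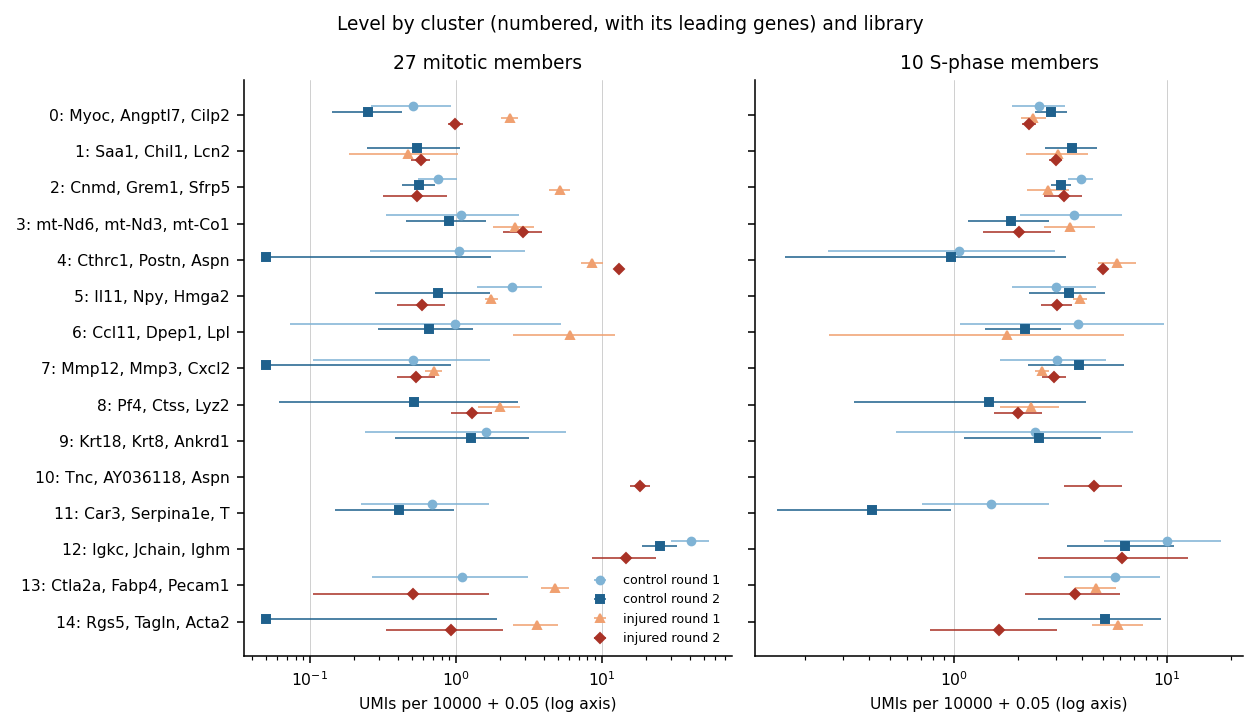
Summed level of the mitotic (left) and S-phase (right) genes per 10000 UMIs in each cluster and library, plus 0.05 on a log axis, with Poisson 95% intervals; cluster and library pairs under 10000 UMIs are not drawn. Mitotic levels span from 0 to 40.9, with cluster 12, cluster 10 and the injured points of cluster 4 at the right (the control points of cluster 4 are at 1.00 and 0), while S-phase levels span from 0.360 to 9.99.

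In injured round 1 most mitotic UMIs lay in cartilage-like cells. They were 508 of its 778 cells (65.3%) and held 870 of its 1234 mitotic UMIs (70.5%) and 5932068 of its 6727076 UMIs, so they held fewer mitotic UMIs per UMI than the library as a whole. In injured round 2 they were 60.7% of the cells and held 492 of 4333 mitotic UMIs (11.4%). Cluster 2, led by the cartilage genes Cnmd and Grem1, had a mitotic level of 5.13 (4.33 to 6.04, 35 cells) in injured round 1 but 0.490 (0.268 to 0.822, 76 cells) in injured round 2, and 0.711 and 0.510 in control. Cluster 0, led by Myoc, Angptl7 and Cilp2 and with nearly as many fibroblast-like as cartilage-like markers, had 2.31 and 0.943 in injured and 0.462 and 0.201 in control libraries. It held 213 of the 870 mitotic UMIs of the cartilage-like cells in injured round 1. A cluster with the same leading genes stayed unnamed when cycle genes were kept in the clustering. In cluster 0 both injured values lay above both control values, and in cluster 2 they did not. Vessel cells of injured round 1 also held mitotic UMIs, at 4.76 (3.78 to 5.91, 36 cells) in endothelial-like and 3.54 (2.42 to 5.00, 16 cells) in mural-like cells. The same clusters had 0.458 and 0.877 in injured round 2 (16 and 19 cells). Few cells were marked with at least 3 mitotic genes as sequenced in injured round 1: 1 of 36 endothelial-like, 3 of 16 mural-like, 2 of 35 in cluster 2 and 5 of 87 in cluster 0. Barcodes under 100 UMIs, too few for a cell here, had a mitotic level of 10.3 in injured round 1 and 1.83 in control round 2, above that of the cells of each library, and of 2.39 in injured round 2, below that of its cells. Neutrophil-like markers of injured round 1 stood at 404.7 per 10000 UMIs in those barcodes and at 0.590 in the cells. Scaled by these markers, the barcodes under 100 UMIs would bring 0.0150 mitotic UMIs per 10000 into the cells, where 1.83 were measured. This scaling takes those barcodes as 1 mixed source that enters all cells alike. Neither that nor the source of the mitotic UMIs in the cells was tested.

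Different clusters led the cartilage-like class in each library: clusters 2 and 5 in control round 1 (97 and 80 of 234, with 75 of the 80 being barcodes with more UMIs in injured round 1), cluster 2 in control round 2 (213 of 307), clusters 5 and 7 in injured round 1 (178 and 186 of 508) and clusters 1 and 0 in injured round 2 (502 and 370 of 1113). Over the whole cartilage-like class, 33 members were tested and 0 were called by edgeR with injury as the only term, against 0% of all genes, with 7 members at an unadjusted p-value under 0.05 (7.97% of all genes) and 0 called by DESeq2. With round as a block 4 rose, namely Cdk1, Cdkn3, Cenpa and Stmn1, where 5.16% of all genes were called higher, and 3 without the shared barcodes (3.11%). Cenpa had 1.17 and 2.38 CPM in control and 12.8 and 4.45 in injured cartilage-like cells (log2 fold change 1.99, SE 0.65, adjusted p = 0.0281). Stmn1 had 21.0 and 13.1 against 44.8 and 21.7 (1.04, SE 0.33, adjusted p = 0.0211). In this class injured round 1 was the higher injured library for both, whereas over all cells Cenpa was higher in injured round 2. Cdk1 and Cdkn3 rest on 1 control UMI each, against 47 and 59 injured UMIs, or 9.10 times (1.55 to 367 by counting error) and 11.4 times higher (1.97 to 459). Over all disc-like clusters together, 36 members were tested and 0 were called (against 0.0178% of all genes), with 15 at an unadjusted p-value under 0.05 (7.57% of all genes) and 3 called by DESeq2 (0.252% of all genes higher). With the block 13 rose, where 2.07% of all genes were called higher, with Ccna2, Cenpf and Top2a joining the list and Ube2c leaving it. With the block 9 were called without the shared barcodes (0.982% of all genes higher) and 4 without clusters 4 and 10 (5.69%). The fibroblast-like class was not tested for injury, since the control libraries held 10 and 5 of its cells.

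Cells were marked as mitotic where at least 3 of the 27 mitotic genes were seen after thinning to 1000 UMIs. In control discs 2 of 196 (1.02%, exact 95% interval 0.124 to 3.64%) and 2 of 397 cells (0.504%, 0.0611 to 1.81%) were marked, and in injured discs 7 of 643 (1.09%, 0.439 to 2.23%) and 53 of 1591 (3.33%, 2.50 to 4.33%). Of the 53 marked cells of injured round 2, 45 were in cluster 4 and 6 in cluster 10. Both marked cells of control round 1 were shared barcodes, and without these 0 of 176 were marked, which at 3 counts allows a share of up to 1.70%. Without clusters 4 and 10 the share in injured round 2 was 2 of 1246 cells (0.160%). Thinning left out 182, 459, 135 and 243 cells under 1000 UMIs. Unthinned, 2.38% and 0.935% of control and 4.37% and 8.45% of injured cells were marked. Within cluster 4, 3 of 13 cells of injured round 1 (23.1%, 5.04 to 53.8%) and 114 of 316 of injured round 2 (36.1%, 30.8 to 41.6%) were marked unthinned. Among the 76 thinned macrophage-like cells of injured round 2 none was marked.

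**Figure D4:**
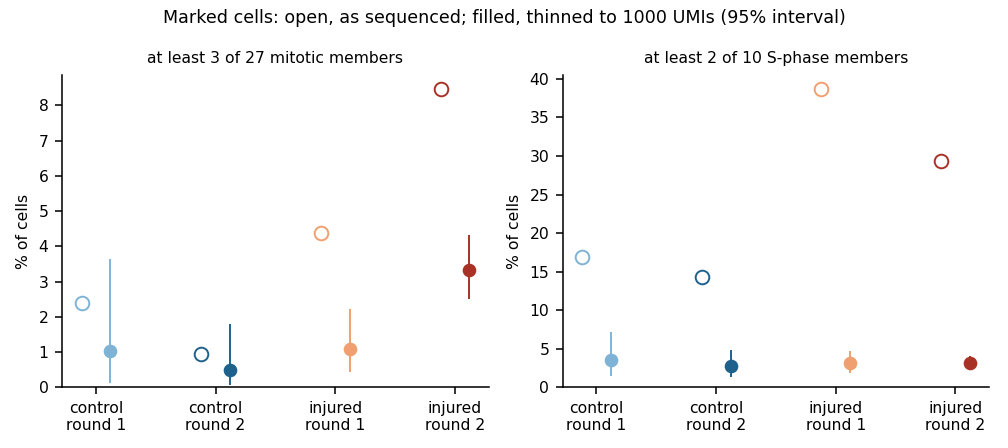
Share of cells with at least 3 mitotic (left) or at least 2 S-phase genes (right) in each library, as sequenced (open) and thinned to 1000 UMIs (filled, with exact 95% intervals). Thinned mitotic shares lie at or under 1.09% except for injured round 2 at 3.33%, and the gap between groups in the open S-phase points is not seen in the filled ones.

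The S-phase genes did not follow the mitotic genes. Their sum was 3.37 and 2.83 per 10000 UMIs in control and 3.10 and 3.24 in injured libraries, and the groups overlapped. Control round 1 stood at 3.43 without the shared barcodes. Pcna had 188.9 and 106.0 CPM in control and 140.9 and 106.7 in injured libraries. Mcm6 had 80.8 and 97.6 against 91.6 and 79.7, with a log2 fold change of 0.00 (SE 0.25 with the block, adjusted p = 0.998). These 2 genes made up 79.9% and 72.0% of the S-phase UMIs in control and 74.9% and 57.5% in injured libraries, so they set the sum.

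The other 8 S-phase genes together gave 0.677 and 0.791 in control and 0.777 and 1.38 in injured libraries. Rrm1, the large subunit of ribonucleotide reductase, had 7.52 and 17.6 CPM in control and 13.4 and 33.0 in injured libraries (log2 fold change 0.97 with the block, SE 0.31, adjusted p = 0.0773). Tyms had 5.64 and 9.72 against 8.62 and 20.9, and Rrm2 11.3 and 3.70 against 10.4 and 16.6. In each of these injured round 2 was the highest and injured round 1 lay within the control range. Mcm4 had 13.2 and 18.0 against 10.4 and 17.8, and Mcm7 12.2 and 14.3 against 15.3 and 14.6. The least abundant, Mcm2, had 1.88 and 4.16 against 5.05 and 9.47, and both injured values lay above both control values. None of the 10 passed the test with or without the block. Of 39 other S-phase genes tested, 2 rose with the block, where 3.04% of all genes did, so the count is near the background. They were Tk1 (thymidine kinase, log2 fold change 2.82, SE 0.74, adjusted p = 0.0329) and Gmnn (the licensing inhibitor geminin, 1.93, SE 0.49, adjusted p = 0.0282). None fell, and without the shared barcodes Tk1 alone was called.

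Cells with at least 2 S-phase genes at 1000 UMIs made up 3.57% and 2.77% of control and 3.11% and 3.14% of injured cells. Unthinned, the same rule marked 16.9% and 14.3% of control and 38.7% and 29.4% of injured cells. The unthinned shares of the 2 groups were well apart and the thinned ones overlapped, and the injured cells were the deeper ones. In cluster 4 the S-phase level was 5.78 (4.68 to 7.07) and 4.95 (4.69 to 5.22) in the injured libraries, against 2.20 in cluster 0 and 3.22 in cluster 2 of injured round 2.

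Fibroblast-like and cartilage-like sums of the same libraries were compared with library as a block. These classes were drawn from the same cells, and the clusters, although made without the members, kept other genes of the cycle. Of 17 members tested 11 were higher in the fibroblast-like cells, where 5.32% of all 8189 genes were called higher, and Mcm6 was lower, where 8.69% were called lower. Top2a had a log2 difference of 3.87 (SE 0.50, adjusted p = 6.66e-13), Rrm2 3.04 (SE 0.51, adjusted p = 8.34e-08), Ube2c 2.91 (SE 0.51) and Tubb5, a beta tubulin, 2.25 (SE 0.39). Tyms, Stmn1, Rrm1, Mcm7, Ccnd1, Tpx2 and Mcm4 had differences between 2.10 and 1.33. Mcm6 had -1.197 (SE 0.38, adjusted p = 0.0165), and Pcna had -0.52 (SE 0.36, adjusted p = 0.409). In CPM, Mcm6 had 89.8 and 115.8 in control and 96.3 and 92.7 in injured cartilage-like cells, against 48.7 and 56.9 in cluster 4 of the injured libraries. Mcm7 had 11.5 and 7.23 in injured cartilage-like cells and 48.7 and 34.8 in cluster 4. The subunits of 1 helicase therefore differed in opposite directions between these clusters.

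The control libraries add few fibroblast-like cells to that fit. With the injured libraries alone 34 of 41 members were higher, where 7.76% of all genes were called higher, and Mcm6 was again lower, where 9.17% were (-1.06, SE 0.30, adjusted p = 0.0174). Mki67 had a log2 difference of 4.82 (SE 0.45) in that fit, the largest of the 6 most abundant mitotic genes, and Aurkb 5.18 (SE 0.83). Without injured round 2 only 1 of 10 members, Tubb5, was called higher (2.94% of all genes), and without injured round 1 there were 4 of 15 (2.79%). Without control round 1 there were 22 of 27 in either direction (15.6% of all genes) and without control round 2 there were 21 of 26 (15.1%). Without the shared barcodes 11 of 17 were called (13.9%), Mcm4 being lost. With no block 9 were called (8.55%), with no filter on low counts 35 (14.8%) and with DESeq2 19 (5.25%). Mcm6 lost its call without either injured library (adjusted p = 0.130 without round 1 and 0.141 without round 2) and without the block (adjusted p = 0.101), at differences of -1.36, -1.55 and -1.18. It also lost it with DESeq2 (-1.32, adjusted p = 0.0864) and with cycle genes kept in the clustering (-0.94, adjusted p = 0.0792). That clustering also changed which cells formed the classes. Its cluster led by Myoc and Angptl7 (543 cells) stayed unnamed, with 10 of 22 fibroblast-like and 10 of 23 cartilage-like markers. The cartilage-like class of injured round 2 then held 752 cells instead of 1113.

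Cluster 4 of injured round 2 was deep enough to compare marked cells, here those with at least 3 mitotic genes as sequenced, with cells in which no mitotic gene was seen. The marked cells were deeper, with medians of 10732 and 5101.5 UMIs (114 and 116 cells), so all levels are in CPM. As 1 library it allows no test. Every S-phase gene was higher in the marked cells: Rrm2 had 96.9 against 8.13, Mcm2 44.4 against 5.42, Rrm1 152.8 against 24.4, Mcm6 87.9 against 20.3 and Pcna 152.0 against 50.2. Mcm6 was in marked cells at about the level of the cartilage-like class, and in unmarked cells well under it. Ccnd1 had 119.9 against 82.7, and its relative Ccnd2 went the other way, with 62.4 against 145.1. Among genes that hold the cycle back, Cdkn2c and Cdkn2d, inhibitors of the D cyclin kinases, were higher in marked cells (64.9 against 17.6 and 55.0 against 21.7). Cdkn1a (p21) and Cdkn1c (p57), which act on more cyclin kinases, were lower (100.2 against 174.9 and 11.5 against 48.8).

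Of the 22 fibroblast-like markers, 14 were lower and 2 higher in the marked cells of cluster 4 with Poisson 95% intervals that did not overlap, and of the 23 cartilage-like markers 6 were lower and 2 higher. These intervals cover counting error within 1 library and are no test. Comp, a cartilage matrix protein, had 241.5 CPM in marked and 1470 in unmarked cells, Fmod 117.5 against 515.2 and Myoc 1.64 against 157.3. The collagen-binding proteoglycans Dcn and Lum had 2929 against 5385 and 405.0 against 976.1. Tnc and Thbs4, matrix glycoproteins of wounds and tendon, went the other way, with 579.1 against 370.1 and 1088 against 741.6. Col2a1, the main collagen of cartilage, had 208.6 against 31.2. Postn and Cthrc1, which lead the cluster, were close, with 925.7 against 939.5 and 832.1 against 911.0.

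**Figure D5:**
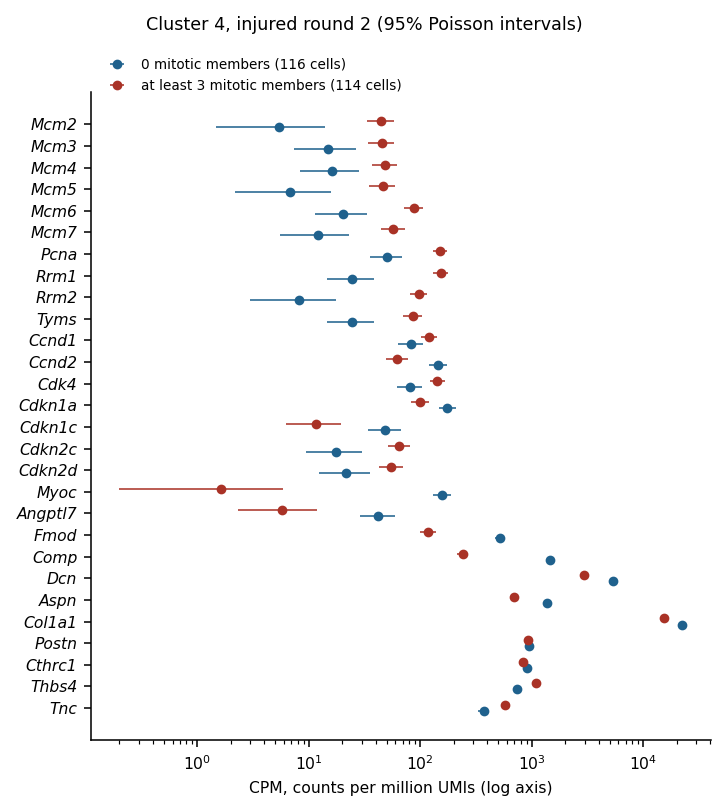
Level in cluster 4 of injured round 2, as CPM on a log axis with Poisson 95% intervals, of S-phase, cell cycle control and matrix genes in cells with at least 3 mitotic genes (red, 114 cells) and with none (blue, 116 cells). All 10 S-phase genes lie further right in red, and Myoc, Comp and Fmod further right in blue.

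Of the broadly used genes, Tubb5 had 132.5 and 106.9 CPM in control and 148.1 and 321.0 in injured libraries (log2 fold change 0.95 with the block, SE 0.33, adjusted p = 0.107). Stmn1, which passed the test with the block (1.28, SE 0.28, adjusted p = 0.0111), had 28.2 and 21.3 against 55.4 and 56.5 and so stood at nearly one level in both injured libraries. Hmgb2, a chromatin protein, had 122.2 and 219.8 against 85.5 and 181.8, and Tuba1b 182.3 and 152.7 against 169.6 and 144.1. Both overlapped between the groups. The D cyclins had no order by group: Ccnd1 had 68.6 and 35.2 against 39.4 and 42.9, and Ccnd2 had 151.3 and 140.2 against 155.5 and 93.6.

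Genes that hold the cycle back or open it were read from lists of their own. Of 17 brakes tested with the block, 3 fell, where 3.66% of all genes did: Gadd45b (log2 fold change -1.58, adjusted p = 0.00187), Gadd45g (-1.46, adjusted p = 0.00941), both stress-response genes, and Cdkn1c (-1.22, adjusted p = 0.0243). None of the 17 rose over all cells. Without the shared barcodes Gadd45b alone of the 17 was called, where 1.12% of all genes were called lower. In the cartilage-like class Cdkn1a rose (1.19, SE 0.39, adjusted p = 0.0304), with 661.2 and 613.7 CPM in control and 1365 and 1288 in injured cells, and Gadd45b, Gadd45g and Rbl2 fell, of 17 tested, where 5.16% of all genes were called higher and 4.59% lower. These 4 calls were also made without the shared barcodes (3.11% higher and 2.44% lower). As a count, the rise of Cdkn1a alone is near the background. Cdkn1a was lower in fibroblast-like than in cartilage-like cells (-2.004, SE 0.40, adjusted p = 1.39e-05). Of 10 genes of cycle entry tested over all cells, Cdk6, a partner of the D cyclins, rose (1.87, SE 0.37, adjusted p = 0.00636) and Myc fell (-1.79, SE 0.26, adjusted p = 0.00045), where 3.04% of all genes rose and 3.66% fell. Myc was also called without the shared barcodes, and Cdk6 was not. With injury as the only term none of the brakes or entry genes was called by edgeR (4 of 17 and 2 of 10 at an unadjusted p-value under 0.05, against 7.89% of all genes), and DESeq2 called Gadd45b and Myc.

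A small unnamed cluster led by immunoglobulin genes (cluster 12, Igkc, Jchain and Ighm) had the highest mitotic level of all clusters in both control libraries and in injured round 1. It stood at 40.9 and 25.1 per 10000 UMIs in the control libraries (15 and 37 cells) and at 36.2 and 14.7 in the injured libraries (14 and 8 cells). It held 35.2% and 34.7% of all mitotic UMIs of the control libraries, and 2.27% and 0.392% of those of the injured libraries. All 15 of its control round 1 cells were barcodes shared with injured round 1 at similar UMIs. Without it the control mitotic levels were 0.788 and 0.458, and the injured levels 1.79 and 4.09. Macrophage-like cells had 1.96 and 1.25 in the injured libraries (38 and 88 cells). Mki67 alone held 14 of these 35 and 16 of these 37 mitotic UMIs. The cyclins Ccna2, Ccnb1 and Ccnb2 had none, while Tpx2 had 7 and 2. Nucleus pulposus-like cells had 0.639 and 0.360 in the control libraries (29 and 72 cells), where 0 of 69 thinned cells were marked. That cluster had a median of 45.9% mitochondrial UMIs and 320 genes per cell, whose part in its level was not tested, and it held too few injured cells to compare.

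Over 2234 injured cells thinned to 1000 UMIs, pairs of mitotic genes had a median correlation of 0.107, pairs of S-phase genes 0.0189, and mitotic with S-phase genes 0.0101. The genes outside the members that varied most with the summed mitotic genes were Tk1 (r = 0.317), Tacc3 (0.283), Anln (0.276), Lgals1 (0.274), Lmnb1 (0.245), Fstl1 (0.240), Pclaf, Spc24, Hist1h2ap and Racgap1. Lgals1 and Fstl1 are a galectin and a secreted glycoprotein rather than genes of the cycle, and Fstl1 is among the leading genes of clusters 4 and 10. These values describe sparse counts of cells that share 2 libraries, and carry no test.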

How the data were processed

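The deposited values are UMI counts of each gene in each barcode. The authors ran Cell Ranger 6.0.0 for control round 1 and version 4 for the other libraries, per the file headers, with mm10, as the labels state. They are whole numbers and were not normalized. The control round 1 table lists only 444 barcodes of at least 502 UMIs, and the others list all barcodes. Cells needed 250 genes, a gene needed 5 cells to enter the clustering, and doublets were not removed. Cells were scaled to 10000 UMIs and log-transformed, and 2000 variable genes without the cell cycle lists (brakes kept) gave 30 components, 20 neighbours and 16 Leiden clusters (scanpy 1.11.5, leidenalg 0.10.2). A cluster was named from at least 3 markers, and 25% of a list, seen in 25% of its cells at 1.2 times the mean elsewhere. It stayed unnamed where another list had more markers among its top 10 genes, or where most of its control round 1 cells were barcodes shared with injured round 1 at similar UMIs (clusters 6, 9, 12 and 15). Cluster 6 also had too few markers. Names may differ from the authors' own. This scoring, the members and the gene lists were chosen with earlier results of these data known.

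Counts were summed per library and tested, two-sided, with edgeR 4.0.16 (R 4.3.3; default filter on low counts, TMM, quasi-likelihood), and called at a Benjamini-Hochberg adjusted p-value under 0.05; DESeq2 1.42.0, round as a block and other filters were alternatives. SE was derived from the log2 fold change and the F statistic. Tested on simulated data of 11713 genes, the fit of all cells called 96 of 100 genes changed by 2 and 100 of 100 changed by 3 on the log2 scale, and 10 unchanged genes. The changed genes were drawn from those over 10 expected UMIs in the smallest library, at a dispersion of 0.05, so this says nothing of members with fewer UMIs such as Cdk1, Cdca3 and Cdkn3. The simulation held no round effect, and the fit with round as a block was not simulated. Recovery at the spread of the measured libraries was therefore not tested. In the measured data Cenpa, at a log2 fold change of 2.85 (SE 0.68), was not called without the block (adjusted p = 0.254). Libraries of the same round deviated together (correlation 0.508 over 11987 genes), and the labels say that control and injured discs came from the same animals. With 2 pooled libraries per group, p-values measure the spread between these pools, which may be technical. Total UMIs per library in the text's order were 1114210, 9891258, 8943537 and 16972879. Intervals are exact (Poisson or Clopper-Pearson, 95%), and the share allowed by 0 marked cells was taken at 3 counts. All 43 members could be named. Those called over all cells with the block, or among the 6 most abundant of their role, are given for every library. Of other lists, some of those called are named.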

Additional observations from a re-analysis of the deposited data

Results flagged for a closer look

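Barcodes under 100 UMIs, which entered no comparison of injured with control discs, held mitotic genes in both injured libraries above the level of such barcodes in control round 2. Their summed mitotic level was 10.3 per 10000 UMIs (Poisson 95% interval 9.79 to 10.8) in injured round 1 and 2.39 (2.24 to 2.55) in injured round 2, against 1.83 (1.71 to 1.96) in control round 2. The S-phase level in these barcodes was 6.22 (5.83 to 6.63) in injured round 1, against 1.39 (1.28 to 1.499) in control round 2, and at 1.44 (1.32 to 1.56) in injured round 2 its interval overlapped that of the control. The control round 1 table lists no such barcodes. The same barcodes of injured round 1 held neutrophil-like markers at 404.7 and pancreatic acinar-like markers at 310 per 10000 UMIs, those of control round 2 at 47.7 and 69.8, and those of injured round 2 at 32.1 and 55.8, below the control. These markers were thus high beside the mitotic genes in injured round 1 and not in injured round 2.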

How the results depend on the processing

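With injury as the only term, the count of members called over all cells was 0 with DESeq2's size factors, no filter, without shared barcodes, at 500 genes per cell, under 10% mitochondrial UMIs and without clusters 4 and 10. It was 2 with DESeq2's own test and between 0 (without injured round 2) and 7 (without injured round 1) without 1 library. The replicate block gave 11 over all cells (10 also without shared barcodes, 2 without clusters 4 and 10), 13 over disc cells (9 without shared barcodes, 4 without clusters 4 and 10) and 4 in the cartilage-like class (3 without shared barcodes). Over disc cells DESeq2 called 3, and leaving out 1 library gave 0 to 3. Between fibroblast-like and cartilage-like cells 12 were called, 35 with no filter, 19 with DESeq2, 35 in the injured libraries only, 9 with no replicate block, and 1 to 22 without 1 library. Injury was not tested within the fibroblast-like class under any setting, since too few control cells were left.

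The injured minus control mitotic level of 2.02 per 10000 became 0.263 without clusters 4 and 10 and 0.566 without clusters 4, 10 and 12 (0.619 also without shared barcodes), and ran from 0.886 to 3.15 without 1 library. The S-phase difference of 0.0713 became -0.312, -0.268 and -0.334 under the same 3 removals. The mitotic-marked difference of 1.45 percentage points became 0.305 at 500 UMIs (control round 1 then above injured round 1), 3.24 at 2000 UMIs and -0.224 without clusters 4 and 10. The S-marked difference of -0.0445 became -0.595 at 500 UMIs, -0.464 at 2000 UMIs, 2.75 with 1 gene fewer and -0.767 without clusters 4 and 10. Without clusters 4 and 10, 13 of 20 mitotic genes tested had a positive fold change (median 0.39) and 7 turned negative, Ccnb1 by most (-0.56); of these Mki67 and Top2a went to -0.0396 and -0.0193, and to -0.0607 and -0.151 with the replicate block as well. The settings without named clusters, in the injured libraries only, and without shared barcodes together with the block were chosen after seeing the data. The cause of these changes was not tested. Depth limits marked shares in control libraries, where 196 and 397 cells reached 1000 UMIs.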
